A study of Mus musculus with 66 samples.

Results

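The difference between iMSN-D2RKO and WT mice in the morning, at zeitgeber time 3 (ZT3, 3 h after lights on), was taken from 6 of the 66 distinct RNA-seq libraries of the series, 3 of WT and 3 of iMSN-D2RKO mice. Members were all genes listed at 1 FPKM (fragments mapped to a gene, scaled by its length and by the size of the library) or more in at least 1 of these 6 libraries, which left 13366 of the 24138 genes in the table. Both groups were male C57BL/6 mice by the labels (C57BL/6J background by the study's methods), 3 to 5 months old, and the tissue was punches of ventral striatum, the region that holds the nucleus accumbens (NAcc). iMSN-D2RKO mice carry floxed alleles of the dopamine D2 receptor (D2R) gene and a Cre recombinase driven by the D1 receptor promoter, and the sources used here do not say whether the WT controls carry the floxed alleles. The other libraries were harvested at ZT7, ZT11, ZT15, ZT19 and ZT23 after saline or cocaine given at ZT3, with 3 libraries per genotype, treatment and time. The labels give "saline/cocaine" as the treatment of the ZT3 libraries and each of these libraries stands in the table under both treatments with identical values, so it was counted once, and it is not clear whether these mice were injected.

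Most neurons of the NAcc are medium spiny neurons (MSNs), of which the direct pathway cells (dMSNs) express the D1 receptor and the indirect pathway cells (iMSNs) express D2R. D2R couples to inhibitory G proteins and lowers cAMP, so that dopamine restrains iMSNs while it excites dMSNs through D1R. Immediate early genes, such as Fos, Arc and Egr2, are transcribed within minutes of neuronal activity, in part through CREB bound to cAMP response elements and through serum response factor bound to CArG boxes, and their RNA is short-lived.

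The 250 bases upstream of the start are shown for 3 immediate early genes that the results turn on, because they carry these elements. Capitals mark CRE half-sites (TGACG, or CGTCA on the other strand) and, in Egr2 alone of the 3, a CArG box. Coordinates are those of RefSeq on GRCm38.p6, all 3 genes lie on the + strand, and Egr2 has 5 annotated starts of which 1 is shown.
Fos, chr12:85473640-85473889: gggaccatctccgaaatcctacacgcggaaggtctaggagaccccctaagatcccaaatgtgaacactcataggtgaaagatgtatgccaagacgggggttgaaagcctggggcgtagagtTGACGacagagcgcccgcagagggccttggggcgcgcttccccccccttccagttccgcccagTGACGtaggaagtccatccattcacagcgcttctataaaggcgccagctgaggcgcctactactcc
Egr2, chr10:67537680-67537929: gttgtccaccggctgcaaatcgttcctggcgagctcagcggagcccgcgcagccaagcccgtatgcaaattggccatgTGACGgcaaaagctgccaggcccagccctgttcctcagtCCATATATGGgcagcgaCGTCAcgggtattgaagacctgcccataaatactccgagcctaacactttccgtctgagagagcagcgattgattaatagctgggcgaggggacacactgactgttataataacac
Nr4a1, chr15:101266596-101266845: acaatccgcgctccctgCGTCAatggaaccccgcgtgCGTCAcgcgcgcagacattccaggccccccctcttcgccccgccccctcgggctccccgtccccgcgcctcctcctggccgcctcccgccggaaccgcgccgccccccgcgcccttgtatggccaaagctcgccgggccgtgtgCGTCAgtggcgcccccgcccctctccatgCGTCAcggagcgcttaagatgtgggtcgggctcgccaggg
A half-site lay upstream of at least 1 annotated start in 12 of the 14 immediate early genes present in the promoter table, and a CArG box in 1 of the 14. Counted per promoter rather than per gene, a half-site lay in 17.8% of all 32851 promoters of that length. Full sites (TGACGTCA) were found in 1.55% and a CArG box in 1.47% of all promoters. These matches describe letters in the window and were not tested against the measured levels.

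The 6 libraries were close in scale. Total FPKM was 374375 to 398119 in WT and 390652 to 416003 in iMSN-D2RKO mice, and 12697 to 12799 genes reached 1 FPKM, while the number of reads behind them is unknown. Relative depth, read from the steps of 1439 rare genes, was 0.996 to 1.16 in WT and 0.914 to 0.987 in iMSN-D2RKO libraries. Across genes, correlations were 0.965 to 0.985 within genotypes and 0.962 to 0.984 between them. In cell type markers 2 libraries stood apart. The library of iMSN-D2RKO replicate 2 listed Prkcd, a kinase abundant in thalamus, at 264 FPKM against 4.76 to 6.23 in the other 5, and its 6 thalamic markers summed to 365 against 15.2 to 25.3. iMSN-D2RKO replicate 3 listed Slc17a7, the vesicular glutamate transporter of cortical neurons, at 12.8 FPKM against 110 to 231, and its 10 cortical markers summed to 105 against 215 to 339. Other marker sums were also highest in these libraries. Replicate 2 had 5263 FPKM of oligodendrocyte markers against 2978 to 4143. Replicate 3 had 20.3 of ependymal markers against 6.41 to 11.7, and 178 of choroid plexus markers against 63.0 to 123. Values without the former and without the latter are given in that order below, as "without either library". They are given for part of the lists and for some genes. At an unadjusted p under 0.05, the share of all genes was 6.05% higher and 4.65% lower without the former, and 3.34% higher and 3.09% lower without the latter. The median of the cortical markers was -0.61 with all 6 libraries (7 of 10 negative) and -0.83 and -0.16 without either library. That of the thalamic markers was 0.82 (6 of 6 positive), and -0.02 and 1.41 without either library. In a bulk tissue, fewer cells of a type and less RNA per cell cannot be told apart.

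No gene of dopamine signalling or spiny neuron identity passed the adjusted threshold between genotypes at ZT3. Drd2, which encodes D2R (chr9:49340360-49408177), was listed at 130, 99.6 and 134 FPKM in WT and at 94.8, 91.0 and 131 in iMSN-D2RKO libraries. The groups overlapped, and the difference was -0.20 ± 0.17 (SE, n = 3 per genotype) on the log2(FPKM + 1) scale, on which all differences below are given as iMSN-D2RKO minus WT (limma adjusted p = 0.773). Gene-level FPKM sums all exons and the sources do not say which exons these reads cover after recombination, so the Drd2 level does not check the deletion. Drd1, the D1 receptor (chr13:54051183-54055658), was listed at 79.5, 70.3 and 95.4 FPKM in WT and 106, 82.3 and 122 in iMSN-D2RKO libraries, again with overlap (0.33 ± 0.17, adjusted p = 0.711). Its difference in the later saline libraries was 0.29, with the iMSN-D2RKO mean higher at 5 of 5 time points and an adjusted p of 0.273. For this gene and those below, the share of all genes with the same sign at 5 of 5 time points is not given here. Drd3 and Drd5 overlapped, and the low Drd4 was at 0.112 to 0.224 FPKM in WT and 0.266 to 1.10 in iMSN-D2RKO libraries. Drd4 passed the filter of 1 FPKM only through iMSN-D2RKO replicate 2, the library with thalamic markers. Its difference was 0.42 (adjusted p = 0.706), and 0.21 and 0.58 without either library.

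Among iMSN genes, Penk and Gpr52 were the most unlike between genotypes, in opposite directions. Penk, the precursor of enkephalin, was at 1235, 894 and 1224 FPKM in WT and 1796, 1197 and 2339 in iMSN-D2RKO libraries. One iMSN-D2RKO library fell within the WT range, and the difference was 0.63 ± 0.26 (adjusted p = 0.706), beside 0.79 in the later saline libraries (adjusted p = 0.0772, higher at 5 of 5 time points). Without either library the ZT3 difference of Penk was 0.89 and 0.41. Gpr52, an orphan receptor that raises cAMP, was at 56.1, 46.3 and 53.5 FPKM in WT and 35.4, 34.9 and 38.6 in iMSN-D2RKO libraries. The groups did not overlap (-0.50 ± 0.09, adjusted p = 0.575), and the later difference was -0.47, lower at 5 of 5 time points. Adora2a, the adenosine receptor paired with D2R in these cells, had 199, 144 and 204 FPKM in WT and 180, 148 and 262 in iMSN-D2RKO libraries. Its groups overlapped (0.08 ± 0.23). Of the dMSN genes, Tac1, the substance P precursor, was at 328, 216 and 278 FPKM in WT and 215, 132 and 257 in iMSN-D2RKO libraries (-0.48 ± 0.26, adjusted p = 0.719), and Pdyn, the dynorphin precursor, differed by -0.59 ± 0.38 with overlap. Without either library Tac1 differed by -0.20 and -0.68 and Pdyn by -0.13 and -0.77.

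By list, 2 of 10 indirect pathway genes (Penk and Ttc12) were higher and 1 (Gpr52) lower at an unadjusted p under 0.05. Of 10 direct pathway genes 0 were higher and 1 (Sfxn1) lower. Ttc12 and Sfxn1 are also the neighbours of Drd2 and Drd1 given below. Without either library the counts were 2 and 0 higher and 1 and 2 lower for the indirect list, and 1 and 0 higher and 1 and 2 lower for the direct list. Over all 13366 genes the shares at that threshold were 3.74% higher and 3.26% lower, and the shares without overlap were 7.77% above and 6.68% below WT. The 26 dopamine and cAMP signalling genes had 0 members at that threshold and a median of 0.00, beside 0.01 over all genes. With all 6 libraries 13 of the 26 were negative. Without either library 7 and 19 were negative, the medians were 0.10 and -0.11, and 0 and 1 were lower at that threshold. Genes within 5 Mb of the floxed locus and of Drd1, whose promoter drives Cre, were read as well. Of the 77 tested genes around Drd2, 6 were higher and 5 lower at an unadjusted p under 0.05, and of the 78 around Drd1, 2 were higher and 3 lower, with 0 past the adjusted threshold around either. Ankk1, the gene next to Drd2, overlapped (-0.19 ± 0.12), and Ttc12, the gene after it, was at 0.958, 0.839 and 1.07 FPKM in WT and 1.28, 1.29 and 1.81 in iMSN-D2RKO libraries (0.33 ± 0.13, adjusted p = 0.698), without overlap. Sfxn1, a mitochondrial serine transporter next to Drd1, was at 29.5, 29.8 and 34.3 FPKM in WT and 24.9, 24.4 and 27.2 in iMSN-D2RKO libraries (-0.28 ± 0.09, adjusted p = 0.621), also without overlap. Among the genes farther off within 5 Mb of Drd2, Slc37a4, the glucose 6-phosphate transporter, was at 9.42, 10.2 and 9.94 FPKM in WT and 14.6, 21.3 and 21.3 in iMSN-D2RKO libraries (0.87 ± 0.15, adjusted p = 0.571), against -0.29 later.

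**Figure D1:**
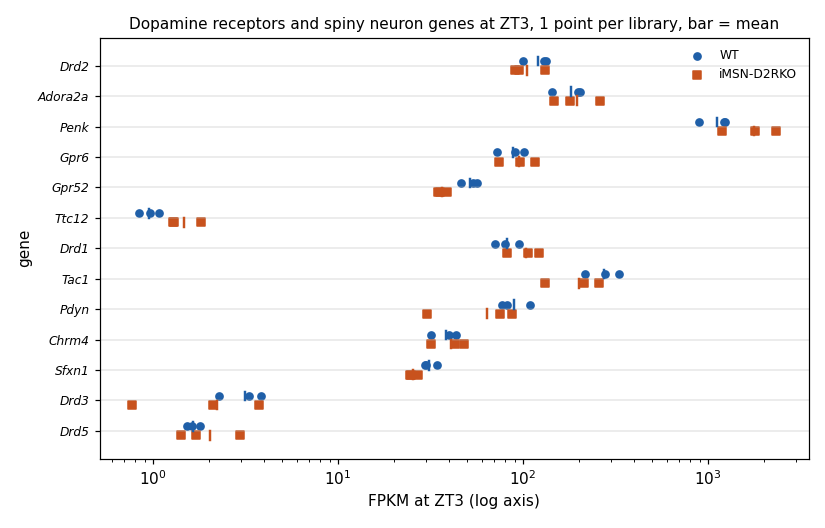
FPKM at ZT3 (log axis) of dopamine receptors, MSN genes and 2 neighbours of the receptor loci, with 1 point per library and a bar at the mean of 3. Drd2 and Adora2a overlap between genotypes, Penk overlaps in 1 iMSN-D2RKO library, and Gpr52, Ttc12 and Sfxn1 do not overlap.

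Immediate early genes were lower in iMSN-D2RKO than in WT libraries at ZT3. All 18 that were tested had a negative difference, with a median of -1.25, and 13 of them were lower at an unadjusted p under 0.05, against 3.26% of all genes tested. In 12 of the 18 all 3 iMSN-D2RKO libraries lay below all 3 WT libraries, against 6.68% of all genes tested. None of the 18 passed the adjusted threshold, and their summed level was 667 to 1593 FPKM in WT and 350 to 597 FPKM in iMSN-D2RKO libraries. The count of 13 was 10 to 14 when each library was left out in turn (11 without the library with thalamic markers, 13 without that low in cortical markers and 11 without WT replicate 1), and all 18 differences stayed negative each time.

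Fos, the AP-1 subunit used as a marker of active neurons, was at 46.0, 13.5 and 18.1 FPKM in WT and 2.64, 6.80 and 6.04 FPKM in iMSN-D2RKO libraries. All WT libraries were above all iMSN-D2RKO ones, with WT replicate 1 far above the other two, and the difference was -2.01 ± 0.47 (adjusted p = 0.596). Egr2, a zinc finger factor that binds GC-rich sites, was at 44.3, 7.88 and 16.3 FPKM in WT and 1.59, 1.56 and 4.90 in iMSN-D2RKO libraries (-2.49 ± 0.60, adjusted p = 0.596). It had the largest difference of the class, and WT replicate 1 was again the highest library. Arc, a synaptic protein that regulates AMPA receptor endocytosis (chr15:74669081-74672570), was at 173, 82.9 and 141 FPKM in WT and 22.9, 35.6 and 46.0 in iMSN-D2RKO libraries. The gap between its groups was wider than the iMSN-D2RKO range, and WT was 3.80 times higher on average (-1.89 ± 0.33, adjusted p = 0.575).

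Nr4a1, an orphan nuclear receptor induced by cAMP and calcium, was at 183, 72.7 and 131 FPKM in WT and 43.0, 46.7 and 66.4 FPKM in iMSN-D2RKO libraries (-1.22 ± 0.33, adjusted p = 0.596). Nr4a3, of the same family, was at 30.4, 10.2 and 11.7 FPKM in WT and 3.85, 4.31 and 7.0 in iMSN-D2RKO libraries. Both were apart between genotypes. Fosl2, another AP-1 subunit, was at 37.2, 11.1 and 15.1 FPKM in WT and 4.82, 5.56 and 9.12 in iMSN-D2RKO libraries, without overlap. Egr1 (279, 171 and 217 against 73.2, 97.9 and 166 FPKM) and Egr4 (186, 66.4 and 88.6 against 28.4, 29.3 and 58.4 FPKM) were apart by narrow margins. Dusp1, a phosphatase that switches off MAP kinases, was at 51.3, 19.7 and 29.7 FPKM in WT and 12.3, 13.7 and 17.3 in iMSN-D2RKO libraries. Junb overlapped, at 264, 60.8 and 103 FPKM in WT and 46.3, 27.6 and 64.3 in iMSN-D2RKO libraries. Fosb, Btg2 and Nr4a2 were also lower at an unadjusted p under 0.05, and Egr3, Npas4, Homer1, Ier2 and Jun, with differences of -0.66, -0.76, -0.48, -0.25 and -0.23, were not. Nr4a2 differed by -1.39 with all libraries and by -1.64 and -0.66 without either library.

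**Figure D2:**
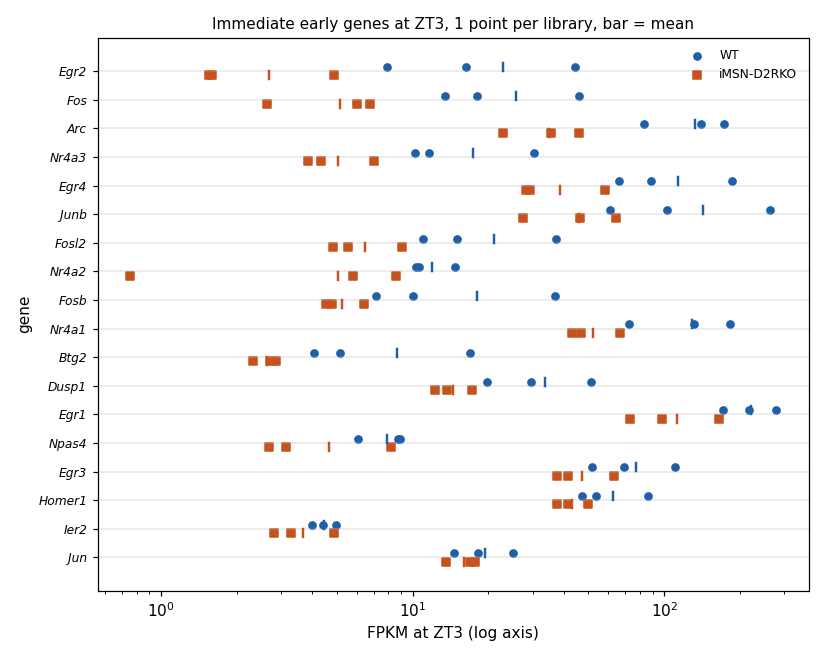
FPKM at ZT3 (log axis) of the 18 immediate early genes, ordered by their genotype difference, with 1 point per library and a bar at the mean of 3. All 18 iMSN-D2RKO means lie below the WT means, and 12 genes have no overlap between the genotypes.

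Levels in WT libraries at ZT3 were also set against the rest of the day. The later libraries came from mice given saline at ZT3, while it is not clear whether the ZT3 mice were injected. Time of day and injection therefore cannot be told apart. Among the 12 groups of ZT3 and saline libraries, the WT ZT3 mean was the highest for 13 of the 18 genes, against 5.15% of all genes tested, and it remained the highest for 13 or 14 when any 1 WT library was left out. For Homer1, Jun, Nr4a2, Npas4 and Ier2 another group had a higher mean. Arc averaged 132 FPKM in WT at ZT3, against 28.6 to 50.7 in the other 11 groups, iMSN-D2RKO at ZT3 among them. Fos averaged 25.8 FPKM there against 2.44 to 8.80, and Egr2 averaged 22.8 FPKM against 1.72 to 4.27. For 10 of the 18 genes, each of the 15 later WT saline libraries was below each WT ZT3 library. The median of the 18 differences between ZT3 and the later time points was 1.49 in WT and -0.10 in iMSN-D2RKO libraries, beside -0.05 and -0.06 over all genes. The WT ZT3 libraries enter both this comparison and that between genotypes, so these values are not independent of the genotype difference.

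**Figure D3:**
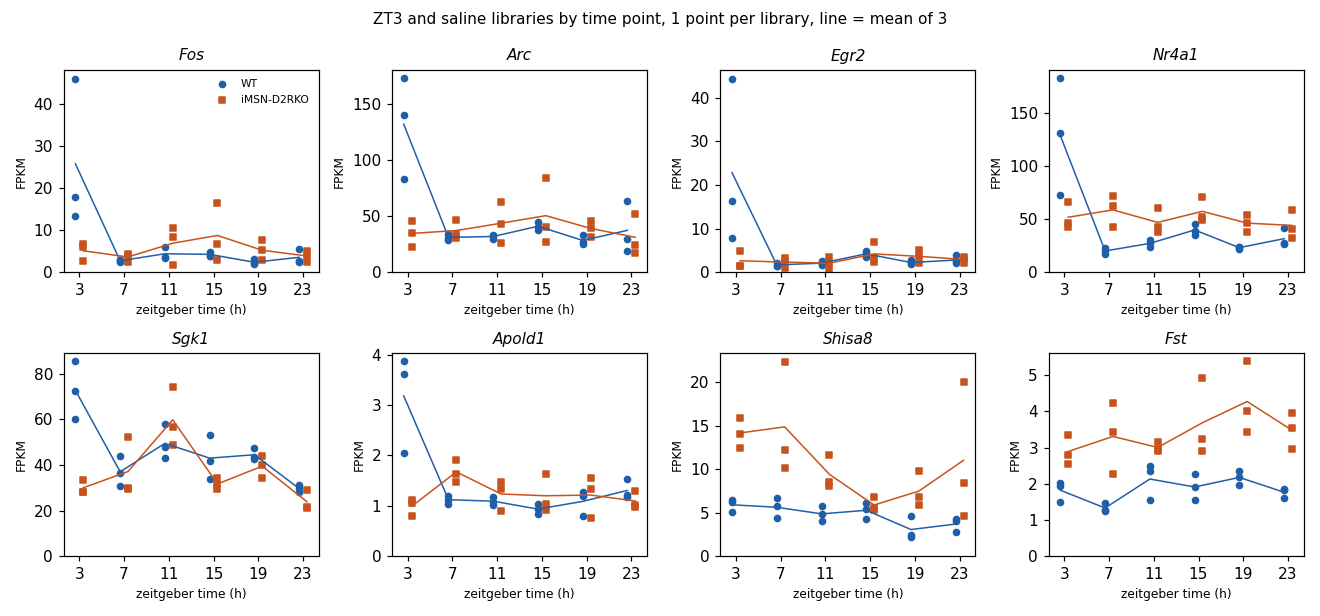
FPKM against zeitgeber time (h) in ZT3 and saline libraries of WT and iMSN-D2RKO mice, with 1 point per library and a line through the means of 3. Fos, Arc, Egr2, Nr4a1, Sgk1 and Apold1 have their highest mean in WT at ZT3, while Shisa8 and Fst have the higher mean in iMSN-D2RKO mice at every time point shown.

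The genotype difference at ZT3 was set against that in the 15 WT and 15 iMSN-D2RKO saline libraries of ZT7 to ZT23 by an interaction term, which called 9 genes (0.0673% of those tested), all of them more negative at ZT3. Nr4a1, Egr2, Nr4a3 and Fosl2 are immediate early genes of the list above. The other 5 were Apold1, Trib1, Dusp6, Sgk1 and Slc25a25. Time of day and injection cannot be told apart in this comparison either. For Nr4a1 the difference was -1.22 at ZT3 and 0.82 later (adjusted p = 0.000467), where medians were 26.6 FPKM in WT and 49.9 in iMSN-D2RKO libraries, so the signs were opposite (-2.04 ± 0.29, adjusted p = 0.00179). Leaving out each ZT3 library in turn left 3 to 16 genes called, with Nr4a1 and Apold1 among them in all 6 cases and Trib1 in 5. By a score along the main axis of the differences within groups, 13 libraries of the series stood apart (44.3 to 56.1, against -35.9 to 15.1 in the rest). They are not those that stood apart in cell type markers, as 0 were from ZT3 and 7 were later saline libraries. Without these libraries 5 genes were called, of which 1, Slc37a4, was positive (1.19). Sgk1, Egr2, Dusp6, Nr4a3 and Fosl2 were no longer among them, with differences of -1.06, -2.52, -0.99, -1.94 and -1.91 in place of -1.10, -2.62, -1.07, -2.12 and -1.91. Without the later library of the largest total FPKM, 14 were called.

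Apold1, a vascular early response gene, was at 3.87, 2.05 and 3.62 FPKM in WT and 1.12, 0.790 and 1.06 in iMSN-D2RKO libraries at ZT3. No library overlapped, and later the medians were 1.13 and 1.33 FPKM (difference of differences -1.15 ± 0.17, adjusted p = 0.00204). Sgk1, a kinase induced by glucocorticoids and neuronal activity (chr10:21882184-21999903), was at 72.3, 60.1 and 85.6 FPKM in WT and 28.3, 33.5 and 28.2 in iMSN-D2RKO libraries. WT was thus 2.42 times higher without overlap (-1.24 ± 0.14, adjusted p = 0.159 at ZT3), against -0.14 later. Trib1, a pseudokinase that directs protein degradation, was at 5.88, 4.28 and 4.68 FPKM in WT and 2.40, 2.99 and 1.99 in iMSN-D2RKO libraries. Dusp6, the ERK phosphatase, was at 39.6, 23.3 and 27.0 FPKM in WT and 12.6, 17.4 and 14.1 in iMSN-D2RKO libraries. Slc25a25, a mitochondrial ATP-Mg carrier, was at 50.2, 32.3 and 39.1 FPKM in WT and 27.1, 25.5 and 29.7 in iMSN-D2RKO libraries. In all 3 genes every WT library exceeded every iMSN-D2RKO library. Estimating the spread from all 66 libraries called 6 genes at ZT3, all lower in iMSN-D2RKO mice: Sgk1, Egr2, Trib1, Apold1, Tiparp and Cyr61.

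The 1 gene past the adjusted threshold at ZT3 (0.00748% of those tested, with 936 genes or 7% at an unadjusted p under 0.05) was Snord17, a small nucleolar RNA. It was listed at 0 in the 3 WT libraries and at 2.22, 2.33 and 2.43 FPKM in iMSN-D2RKO libraries (adjusted p = 0.00852). Snord17 thus passed the filter of 1 FPKM through iMSN-D2RKO libraries alone, and its 3 equal WT values have no spread. Small nucleolar RNAs are not polyadenylated and these libraries were selected for poly(A), its median was 0 in the later saline libraries of both genotypes, and the value of its later difference was 0.05. With the replicate number as a block 0 genes were called and its adjusted p was 0.192, and when each library was left out in turn it was called in 1 of 6 cases. With the spread from all 66 libraries, from the 36 ZT3 and saline libraries or from those that do not stand apart by the score, its adjusted p was 0.68, 0.225 and 0.577.

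Beyond it, the genes with the smallest p-values did not pass the adjusted threshold. Shisa8, an auxiliary subunit of AMPA receptors (chr15:82206173-82212848), was at 5.07, 6.20 and 6.44 FPKM in WT and 14.1, 12.5 and 15.9 in iMSN-D2RKO libraries. The iMSN-D2RKO level was 2.39 times higher with a wide gap (1.13 ± 0.12, adjusted p = 0.159), and the later libraries gave 0.88 ± 0.16 (adjusted p = 0.00919). That later adjusted p was 0.214, 0.457 and 0.0544 without replicate 1, 2 and 3. Cldn5, the tight junction protein of brain endothelium, was at 39.3, 40.6 and 37.6 FPKM in WT and 60.5, 69.5 and 84.1 in iMSN-D2RKO libraries (0.84 ± 0.12, adjusted p = 0.401). It was the 1 of 7 endothelial markers at an unadjusted p under 0.05, and the later difference was 0.07. Hint2 and Cmc1, both mitochondrial, differed by 0.54 and 0.47 without overlap, as did Slc37a4 near Drd2.

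Gal, the galanin precursor (chr19:3409915-3414544), had the smallest p-value among the genes lower in iMSN-D2RKO mice. It was at 7.76, 13.1 and 7.47 FPKM in WT and 1.87, 1.10 and 1.70 in iMSN-D2RKO libraries, so WT was 6.06 times higher with no overlap (-2.00 ± 0.22, adjusted p = 0.159). In the later saline libraries the difference was 0.19, and iMSN-D2RKO libraries ran from 0 to 19.6 FPKM. Of the 19 neuropeptide genes tested, 4 were lower and 2 higher at an unadjusted p under 0.05, and 6 were apart below WT, against 3.74% higher, 3.26% lower and 6.68% apart below WT over all genes. Without either library 3 and 0 were higher and 6 and 6 lower, with medians of -0.23 and -0.31 against -0.48 with all 6. For Gal the differences were then -1.87 and -2.05, and for Tac2, which was lowest in the library with thalamic markers, -0.95 and -1.59. Tac2, the neurokinin B precursor, was at 56.4, 65.2 and 33.2 FPKM in WT and 28.2, 8.69 and 22.7 in iMSN-D2RKO libraries (-1.43 ± 0.43). Avp, the vasopressin precursor, was at 6.94, 20.3 and 6.67 FPKM in WT and 1.28, 5.29 and 3.37 in iMSN-D2RKO libraries (-1.46 ± 0.49). Both were apart between genotypes and neither passed the adjusted threshold (0.613 and 0.657). The 12 markers of preoptic, bed nucleus and hypothalamic neurons, a list that holds Avp, summed to 318 to 357 FPKM in WT and 252 to 365 in iMSN-D2RKO libraries. Of the 7 of them that were tested, 5 were negative and 2 positive, from -1.75 to 0.22. Their median was -0.26, and 1 was lower and 0 higher at an unadjusted p under 0.05. The part of these cells in the neuropeptide values was not tested.

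Of the 13 genes on the list of those that glucocorticoids induce, 7 were lower at an unadjusted p under 0.05 and all 13 differences were negative (median -0.34), against 3.26% lower and 46% negative over all genes. Without either library 8 and 6 were lower. Sgk1 is among them. Pdk4, which inhibits pyruvate dehydrogenase, was at 4.91, 5.20 and 5.08 FPKM in WT and 3.34, 3.30 and 3.48 in iMSN-D2RKO libraries, a small and even difference (-0.47 ± 0.07, adjusted p = 0.486). Ddit4, an inhibitor of mTORC1, was at 52.2, 38.8 and 46.3 FPKM in WT and 30.3, 27.5 and 29.8 in iMSN-D2RKO libraries (-0.62 ± 0.11, adjusted p = 0.575). Per1, a clock gene that glucocorticoids and CREB also induce, was at 68.8, 42.2 and 48.7 FPKM in WT and 29.1, 26.5 and 37.2 in iMSN-D2RKO libraries. Per1 did not overlap (-0.75 ± 0.20, adjusted p = 0.596). The core clock genes Arntl, Cry1, Nr1d1 and Dbp, with differences of 0.15, -0.11, 0.02 and 0.09, overlapped between genotypes. Over the 22 clock genes 1 was higher and 1 lower at an unadjusted p under 0.05 and the median was -0.01. These counts without either library were 0 and 0 higher and 4 and 2 lower.

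Among chaperones, 4 of 24 were lower and 0 higher at an unadjusted p under 0.05, with a median of -0.16 (3.26% lower over all genes). Without either library 3 and 7 were lower. Hspa8, the constitutive Hsc70, was at 177, 165 and 201 FPKM in WT and 141, 47.3 and 59.3 in iMSN-D2RKO libraries (-1.28 ± 0.37, adjusted p = 0.613), and the difference was -0.97 and -1.13 without either library. Dnajb1, its Hsp40 partner, was at 24.2, 24.6 and 27.7 FPKM in WT and 15.7, 17.9 and 20.7 in iMSN-D2RKO libraries (-0.48 ± 0.11, adjusted p = 0.596). In both the groups were apart. Of 3 RNA-binding genes that cold induces, Cirbp (52.5, 51.6 and 40.3 FPKM against 82.7, 62.1 and 61.2) and Srsf5 (40.0, 43.3 and 46.0 FPKM against 55.1, 54.4 and 54.9) were higher in iMSN-D2RKO libraries without overlap, while Rbm3 differed by -0.01.

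Receptor lists held few members at that threshold, which 3.26% of all genes passed as lower. Of the serotonin receptors 2 of 10 were lower, Htr2a (9.21, 9.33 and 7.96 FPKM in WT against 7.25, 5.39 and 3.07) and Htr1b (61.6, 43.4 and 50.2 against 32.8, 28.6 and 46.1). Htr2a was lowest in the library low in cortical markers, and its difference was -0.71 with all 6 libraries and -0.43 without that one. Of 14 GABA-A subunits 2 were lower, Gabrq with a difference of -0.85 and Gabrg3 with -0.36, while Gabrd, the delta subunit of tonic receptors, differed by 0.26 with overlap. Kcnd1, a potassium channel that the study followed, differed by 0.04. Counts were 2 lower of 22 glutamate receptors, and 0 in either direction of 6 opioid and cannabinoid, 8 acetylcholine and 5 dopamine receptors and of 6 genes of dopamine synthesis and transport. The dopamine receptors without either library had 1 and 1 higher and 0 and 1 lower. The acetylcholine receptors then had 1 and 0 lower, and the genes of dopamine synthesis and transport 1 and 0 higher. The activin and follistatin list had 1 of 16 higher, which was Fst, the PPAR list 1 of 16 lower (Pparg itself did not reach 1 FPKM and was not tested) and the phospholipase A2 and prostaglandin list 1 of 13 lower. Counts without either library were 2 and 2 higher for the activin list. They were 1 and 1 lower for the PPAR list and 0 and 1 lower for the phospholipase list. Marker lists of glia, vessels and other neurons had at most 1 member at that threshold in either direction with all 6 libraries. The exception was neuroblasts of the subventricular zone, with 2 of 7 lower and all 7 negative (median -0.34), and with 1 and 4 lower without either library. In the other marker lists the counts then reached 3 at most, for GABA interneuron markers lower without the library low in cortical markers. The cortical and thalamic markers had 0 members at that threshold with all 6 libraries but the medians given above. Their part in the list values was not tested.

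**Figure D4:**
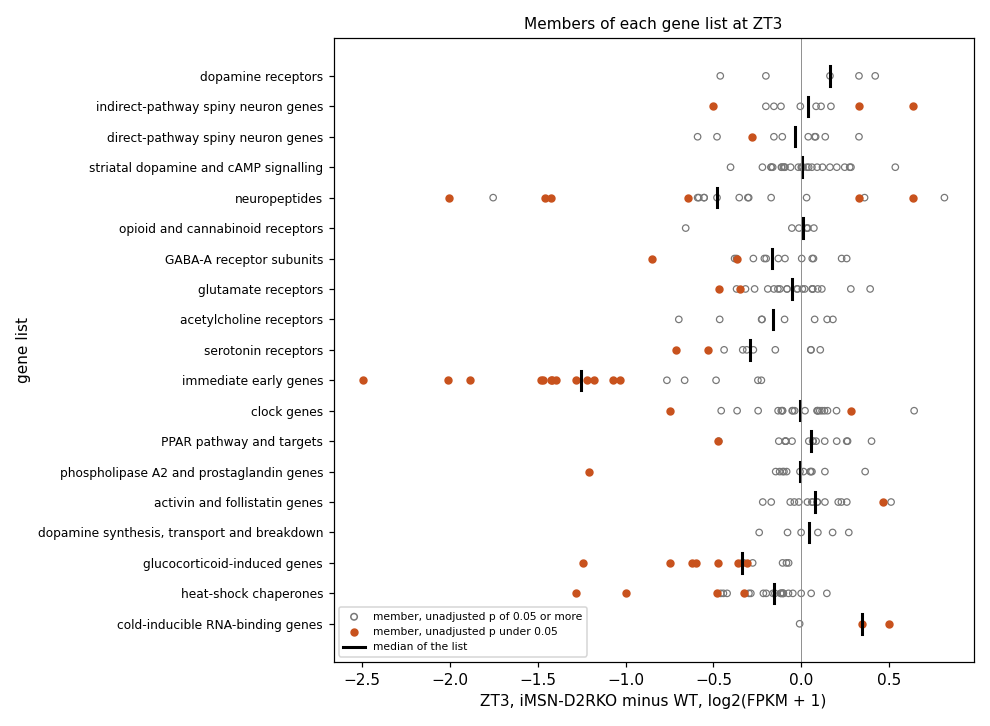
Genotype difference at ZT3 (iMSN-D2RKO minus WT, log2(FPKM + 1)) of each tested member of 19 gene lists, filled where the unadjusted p was under 0.05, with a bar at the median of the list. Of the lists plotted, the immediate early genes have the lowest median, -1.25, and that of the neuropeptides, -0.48, is next, while the cortical markers, not plotted, have -0.61.

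The later saline libraries called 13 genes between genotypes (0.0973%), 10 higher and 3 lower in iMSN-D2RKO mice, and these were read at ZT3. The ZT3 libraries entered this choice only through the filter of 1 FPKM, which Snx31 passed through 1 iMSN-D2RKO library alone. Of the 13, 12 had the same sign at ZT3, 8 were apart at ZT3 in that direction, Nr4a1 was apart in the other direction, and 0 passed the adjusted threshold at ZT3. Snx31 is among both the 12 and the 8, so its part in these counts is not free of the filter. Dusp14, Hcrtr2 and Gpx6, also among the 12, were near 0 at ZT3 and changed sign when 1 library was left out. Over all genes tested, 7.77% were apart above and 6.68% below WT at ZT3. The share of all genes with the same sign in both comparisons was not computed. Of the 13 later calls, 3 remained without replicate 1, 4 without replicate 2 and 4 without replicate 3. Fst and Snx31 remained in each case. Shisa8, Anxa3, Pdlim3, Inhba, Rln3, Dusp14, Hcrtr2 and Gpx6 were lost in each case. Nr4a1 was lost without replicate 1 or 2, and Ackr2 without replicate 1 or 3. Fst, which encodes the activin antagonist follistatin, was at 2.03, 1.51 and 1.93 FPKM in WT and 3.35, 2.55 and 2.78 in iMSN-D2RKO libraries at ZT3, without overlap (0.46 ± 0.12, and 0.66 ± 0.08 later, adjusted p = 1.8e-05). Snx31, a sorting nexin, was at 0.257, 0.212 and 0.184 FPKM in WT and 1.56, 0.559 and 0.762 in iMSN-D2RKO libraries (0.65 ± 0.20, and 0.79 ± 0.07 later, adjusted p = 3.3e-08). Every iMSN-D2RKO library exceeded every WT library in both. Anxa3, a calcium-dependent phospholipid-binding protein, was at 4.46, 3.57 and 5.70 FPKM in WT and 7.94, 6.74 and 9.93 in iMSN-D2RKO libraries (0.73 ± 0.18, and 0.85 later).

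Pdlim3, a PDZ and LIM protein, was at 1.33, 1.72 and 1.08 FPKM in WT and 2.26, 4.53 and 3.56 in iMSN-D2RKO libraries (0.88 ± 0.21, and 0.71 later). Ackr2, a scavenger receptor for chemokines, was lower, at 2.33, 1.98 and 2.18 FPKM in WT against 1.49, 0.951 and 1.52 (-0.46 ± 0.13, and -0.71 later). Both were apart. Inhba, the activin A subunit, was at 4.66, 1.83 and 2.86 FPKM in WT and 4.72, 4.51 and 4.65 in iMSN-D2RKO libraries, where the highest WT library was above 2 of the 3 iMSN-D2RKO libraries. Dusp14, Hcrtr2 and Gpx6, called later, were at 0.03, 0.03 and -0.03 at ZT3, and with the replicate number as a block the later adjusted p of Hcrtr2 and Gpx6 was 0.0565. In the cocaine libraries of the same time points the iMSN-D2RKO means of Shisa8, Fst, Snx31, Anxa3, Pdlim3 and Inhba were higher at 5 of 5 time points, and Ackr2 was higher at 0 of 5, given as a description with no test.

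**Figure D5:**
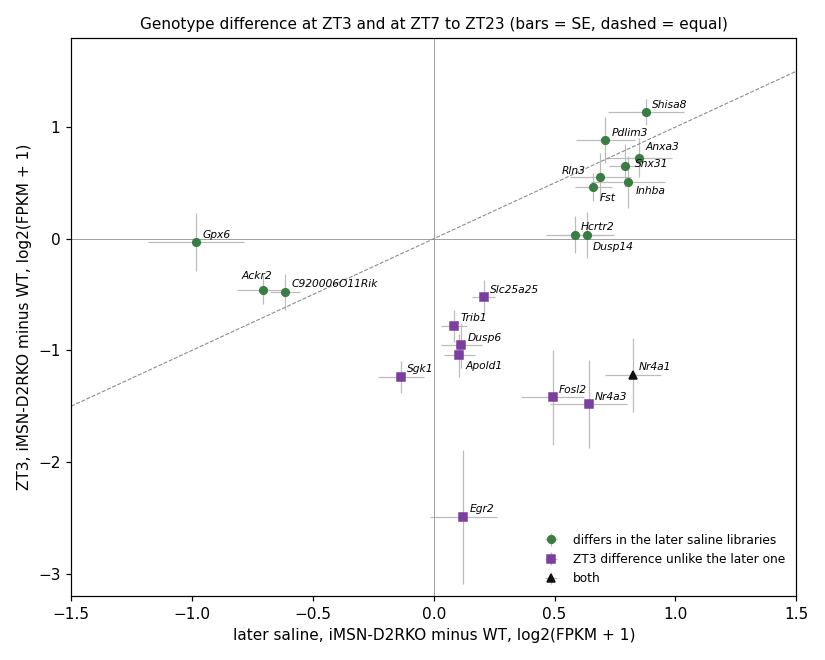
Genotype difference (iMSN-D2RKO minus WT, log2(FPKM + 1)) at ZT3 against that in the saline libraries of ZT7 to ZT23, for genes called later (13) or by the interaction (9), with bars for the SE and a dashed line where both are equal. The 9 genes of the interaction lie below the line, and Nr4a1 lies on opposite sides of 0 in the 2 comparisons.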

How the data were processed

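RNA was taken from ventral striatum punches, and per the labels and the study's methods the authors made poly(A) libraries, aligned reads to mm10 with TopHat and Bowtie and obtained gene-level FPKM with Cufflinks and Cuffnorm. The labels name CASAVA 1.8.2. The deposited FPKM values were normalized across libraries, so read counts and depth are unknown. The table has 72 columns, of which 6 repeat the ZT3 libraries under cocaine. Members and gene lists were chosen with earlier results of these data known.

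Genes with at least 1 FPKM in 1 of the 6 ZT3 libraries were tested on log2(FPKM + 1) with limma 3.58.1 in R 4.3.3 (trended prior, Benjamini-Hochberg adjustment over all 13366 genes, threshold 0.05). The later comparison took time point as a covariate over 30 saline libraries, and the interaction used all 36. Fold differences on this scale understate those of low genes. An exact permutation test of 3 against 3 cannot go below 0.1 and was not used. Labels do not say that libraries are separate animals, so p-values measure the spread between these samples, which may be technical. Same-numbered WT and iMSN-D2RKO libraries deviated together at ZT3 (correlations over genes 0.234, 0.263 and 0.186), so a fit with the replicate number as a block was run. Named genes were those the study followed, the 12 with the smallest p in each direction, up to 3 members of each list by mean FPKM, the neighbours of Drd2 and Drd1 and the 5 with the smallest interaction p, of which the text gives a selection. All other named genes, among them most immediate early genes and those called in later libraries, were chosen after their values were seen. Genes counted with a joined neighbour (355 entries) were kept as listed. The scripts were tested on simulated data.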

Additional observations from a re-analysis of the deposited data

Results flagged for a closer look

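The following 9 genes had a genotype difference (iMSN-D2RKO minus WT, log2(FPKM + 1)) at ZT3 that was unlike their difference in the saline libraries of ZT7 to ZT23 by the limma interaction test, adjusted over 13366 genes. The values are the ZT3 difference minus the later one, and all are negative. Among nuclear receptors and transcription factors, Nr4a1 gave -2.04 ± 0.29 (SE, adjusted p = 0.00179), Egr2 -2.62 ± 0.46 (adjusted p = 0.014), Nr4a3 -2.12 ± 0.42 (adjusted p = 0.038) and Fosl2 -1.91 ± 0.38 (adjusted p = 0.038). Among signalling regulators, Trib1 gave -0.87 ± 0.14 (adjusted p = 0.00622), Dusp6 -1.07 ± 0.21 (adjusted p = 0.038) and Sgk1 -1.10 ± 0.22 (adjusted p = 0.038). Apold1 gave -1.15 ± 0.17 (adjusted p = 0.00204) and the mitochondrial carrier Slc25a25 -0.73 ± 0.13 (adjusted p = 0.0108). The 15 later libraries of each genotype shared no library with ZT3. They came from mice given saline, so time of day and injection cannot be told apart.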

How the results depend on the processing

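With 3 libraries per genotype and unknown read numbers, the adjusted threshold at ZT3 rests on small changes in the estimated spread. The 1 gene called at ZT3 remained 1 gene under other pseudocounts (0.1 and 5), filters, rescaling, quantile normalization and without a trend. The count was 6 with the spread from all 66 libraries and 5 with that from the 36 ZT3 and saline libraries, neither with Snord17, 3 when outlier replicates were left out by Dixon's test, 0 with the replicate block (1306 genes at an unadjusted p under 0.05), 0 to 2 when 1 library was left out, and 18 (2 higher and 16 lower, without Snord17) with the spread from the libraries that do not stand apart. The later libraries called 13 genes, and 4 without replicate 1, 2 or 3 (3, 4 and 4 of them among the 13), 20 without the libraries that stand apart and 25 without the library of the largest total FPKM (iMSN-D2RKO ZT7 saline replicate 1). The 9 genes of the interaction became 5 and 14 under these last 2 settings and 3 to 16 when 1 ZT3 library was left out (3 without WT replicate 1, WT replicate 3 or iMSN-D2RKO replicate 1, 4 without iMSN-D2RKO replicate 2, 8 without iMSN-D2RKO replicate 3 and 16 without WT replicate 2). Libraries that stand apart are here the 13 set apart by the score, not those set apart by cell type markers. The settings with libraries that stand apart, with the largest library and with 1 ZT3 library left out of the interaction or of the gene lists were chosen after seeing the data. With a pseudocount of 0.1 the interaction of Nr4a3 and Fosl2 had an adjusted p of 0.068. The replicate block changed the calls of Snord17, Hcrtr2 and Gpx6 and no other of the calls named. The number of immediate early genes lower at an unadjusted p under 0.05 ran from 10 to 15 under all settings. Under quantile normalization Dusp14 was at -0.000784 and Nr1d1 at -0.0222. When 1 ZT3 library was left out, differences near 0 changed sign, from -0.14 to 0.27 for Adora2a, -0.0345 to 0.277 for Gpr6, -0.298 to 0.0100 for Cry1, -0.18 to 0.17 for Dusp14, -0.28 to 0.16 for Gpx6, -0.0522 to 0.244 for Chrm4, -0.0473 to 0.307 for Drd5, -0.11 to 0.32 for Dbp, -0.0924 to 0.139 for Hcrtr2, -0.0106 to 0.0702 for Kcnd1 and -0.112 to 0.0769 for Rbm3. The cause was not tested.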
